A study of Homo sapiens with 6 samples.

Results

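The small nucleolar RNA host genes (SNHG genes) are long noncoding RNA (lncRNA) genes that carry small nucleolar RNAs (snoRNAs). Their levels were examined, with a panel of abundant lncRNAs, in cells labelled HepG2 that were treated with polydatin (PD). The genes were chosen by symbol, as the 28 genes named SNHG with a number in GENCODE release 44 and 10 named lncRNAs, GAS5, ZFAS1, EPB41L4A-AS1, DANCR, CYTOR, TUG1, NORAD, OIP5-AS1, MALAT1 and NEAT1. Of these 38 genes, 36 were among the 28563 genes of the deposited table, and SNHG18 and SNHG27 were not analysed here. The minimum mean of 0.5 FPKM was reached by 20 of the 26 SNHG genes and by all 10 lncRNAs, so that 30 of the 14400 genes tested belonged to this set.

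HepG2 is an established human line from a hepatic tumour. PD is a stilbene glucoside made by plants. Per the labels, 3 dishes received 336 µM PD and 3 control dishes received the solvent DMSO for 24 h, and the study's methods state a somewhat lower dose. The 6 dishes carried no engineered allele and belonged to a single line at a single dose and time, and nothing in the sources used here says that they came from separate cultures, so p-values measured the spread between dishes. RNA was selected by its poly(A) tail and read as unstranded fragments, and the authors deposited FPKM, the fragments counted on a gene scaled to the length of the gene and to the fragment total of its library. Whole fragments worked back from the FPKM gave totals of 16763318 to 17274927 per library in DMSO and 16308476 to 18071632 in PD. Of 20 genes typical of hepatocytes, 11 were in the table, and 9 of these stayed under 1 FPKM in every library. Only CPS1 (225 ± 3.45 FPKM in DMSO and 109 ± 2.60 FPKM in PD, SD, n = 3) and RBP4 (0.391 ± 0.0803 and 1.30 ± 0.376 FPKM) reached it. These markers do not bear out a hepatocyte identity. The name HepG2 is used here as the labels give it, and the identity of the cells was not tested. The summed FPKM of 4 markers of simple epithelium was 95.4 to 101 in DMSO and 114 to 120 in PD, with KRT8 called higher (50.1 ± 2.04 and 68.9 ± 2.77 FPKM) and KRT18 and EPCAM not called. The sum of 5 fibroblast markers, 2 of which reached 1 FPKM, was 4.52 to 5.40 in DMSO and 4.82 to 5.09 in PD, and that of 5 endothelial markers was at most 0.0888 in any library. The part of these marker levels in the results was not tested.

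A snoRNA guides the chemical modification or the cleavage of ribosomal RNA. Most human snoRNAs are not transcribed on their own but are released from introns of a host gene after splicing, and in an SNHG gene the spliced exons that remain encode no conserved protein. Several spliced SNHG transcripts start with a 5′ terminal oligopyrimidine (5′TOP) tract, the feature that ties ribosomal protein mRNAs to growth signals, and are degraded by nonsense-mediated decay (NMD) when they are translated. Among the lncRNAs of the panel, GAS5, ZFAS1, DANCR and EPB41L4A-AS1 are host genes without the SNHG name, MALAT1 and NEAT1 stay in the nucleus at speckles and paraspeckles, and NORAD binds Pumilio proteins in the cytoplasm. In bulk RNA, fewer cells with a transcript and less of it per cell cannot be told apart.

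The start sites are shown because the 5′TOP tract is the sequence feature that host genes are known for. Each window runs from 25 bases before to 30 bases from the RefSeq start site on GRCh38.p14, 5′ to 3′ on the strand of the gene, and capitals mark the run of C and T letters that begins with a C at the start itself. The 5 tested SNHG genes and the lncRNA whose run had at least 5 bases come before 4 genes with shorter runs or none.
SNHG4, chr5:139274076-139274130, plus strand: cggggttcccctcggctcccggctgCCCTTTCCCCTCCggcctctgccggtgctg
SNHG12, chr1:28581844-28581898, minus strand: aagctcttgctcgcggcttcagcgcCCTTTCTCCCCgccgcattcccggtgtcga
SNHG19, chr16:2155329-2155383, minus strand: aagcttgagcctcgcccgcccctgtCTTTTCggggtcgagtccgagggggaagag
SNHG32, chr6:31834891-31834945, plus strand: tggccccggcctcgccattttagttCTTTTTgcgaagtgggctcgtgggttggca
SNHG5, chr6:85678704-85678758, minus strand: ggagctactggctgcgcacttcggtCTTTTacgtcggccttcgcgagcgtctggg
ZFAS1, chr20:49278617-49278671, plus strand: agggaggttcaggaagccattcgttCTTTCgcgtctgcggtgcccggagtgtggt
SNHG1, chr11:62855856-62855910, minus strand: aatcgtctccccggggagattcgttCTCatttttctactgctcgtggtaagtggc
SNHG3, chr1:28505918-28505972, plus strand: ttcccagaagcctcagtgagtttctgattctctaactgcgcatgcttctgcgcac
SNHG17, chr20:38435299-38435353, minus strand: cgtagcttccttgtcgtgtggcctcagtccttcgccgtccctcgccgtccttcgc
OIP5-AS1, chr15:41283965-41284019, plus strand: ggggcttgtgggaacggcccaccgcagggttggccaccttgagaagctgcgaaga

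A RefSeq promoter was matched by symbol for 17 of the 20 tested SNHG genes and 9 of the 10 lncRNAs, and SNHG6, SNHG9, SNHG15 and NEAT1 were without an entry. A C at the start followed by a run that brought the C and T letters to at least 5 was found in 5 of these 17 SNHG genes (29.4%), in 1 of the 9 lncRNAs, in 5.48% of the 9809 promoters of tested genes and in 4.04% of 27305 promoters in all. In SNHG4 the run had 13 bases, in SNHG12 11, in SNHG19 and SNHG32 6, and in SNHG5 and ZFAS1 5. The hexamer CACGTG, an E-box that reads the same on both strands, lay between 250 bases before and 50 after the start in 2 of the 17 SNHG genes (11.8%), SNHG7 and SNHG30, in OIP5-AS1, NORAD and TUG1, in 10.3% of the promoters of tested genes and in 7.43% of all promoters. These letters are a description of the annotated start, which differed from the GENCODE start in several genes, and no start was measured here.

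PD-treated cells had lower levels of most SNHG genes, and none was called higher. A gene was called when its adjusted p did not exceed 0.05 (limma on log2(FPKM + 1), Benjamini-Hochberg over all 14400 genes), which 58.1% of all tested genes did. Of the 20 SNHG genes tested, 12 (60%) were called lower, against a background of 26.2% of all tested genes, and 0 were called higher, against 31.9%. The count of higher SNHG genes was also 0 at an unadjusted p under 0.05 and by limma voom on fragments. Voom called 12 of the 20 lower, and also SNHG26, which was under the minimum of the main test (log2 fold change -0.80, adjusted p = 0.041), against a background of 28.3% lower. The median log2 fold change was -0.31 over the 20 SNHG genes and 0.01 over all tested genes. The 3 PD libraries all lay below the 3 DMSO libraries in 14 SNHG genes (70.0%), which held for 29.9% of all tested genes. They all lay above in 0 SNHG genes, against 35.6% of all tested genes. A differentially expressed gene (DEG) was a called gene with a change of at least 2-fold on the FPKM + 1 scale, a class that held 3.61% of all tested genes, 1.57% as lower and 2.04% as higher, and 0 SNHG genes were DEGs. The ratio of the group means without the pseudocount was beyond 2-fold in SNHG4 (0.468) and SNHG15 (0.491). On the FPKM + 1 scale the log2 fold changes ran from -0.97 to 0.32, so no cutoff on p could give a DEG. Voom on fragments called 3 lower DEGs, SNHG4, SNHG15 and SNHG20, and 0 higher. The background by voom was 4.8% lower and 6.72% higher DEGs of 15068 genes.

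**Figure D1:**
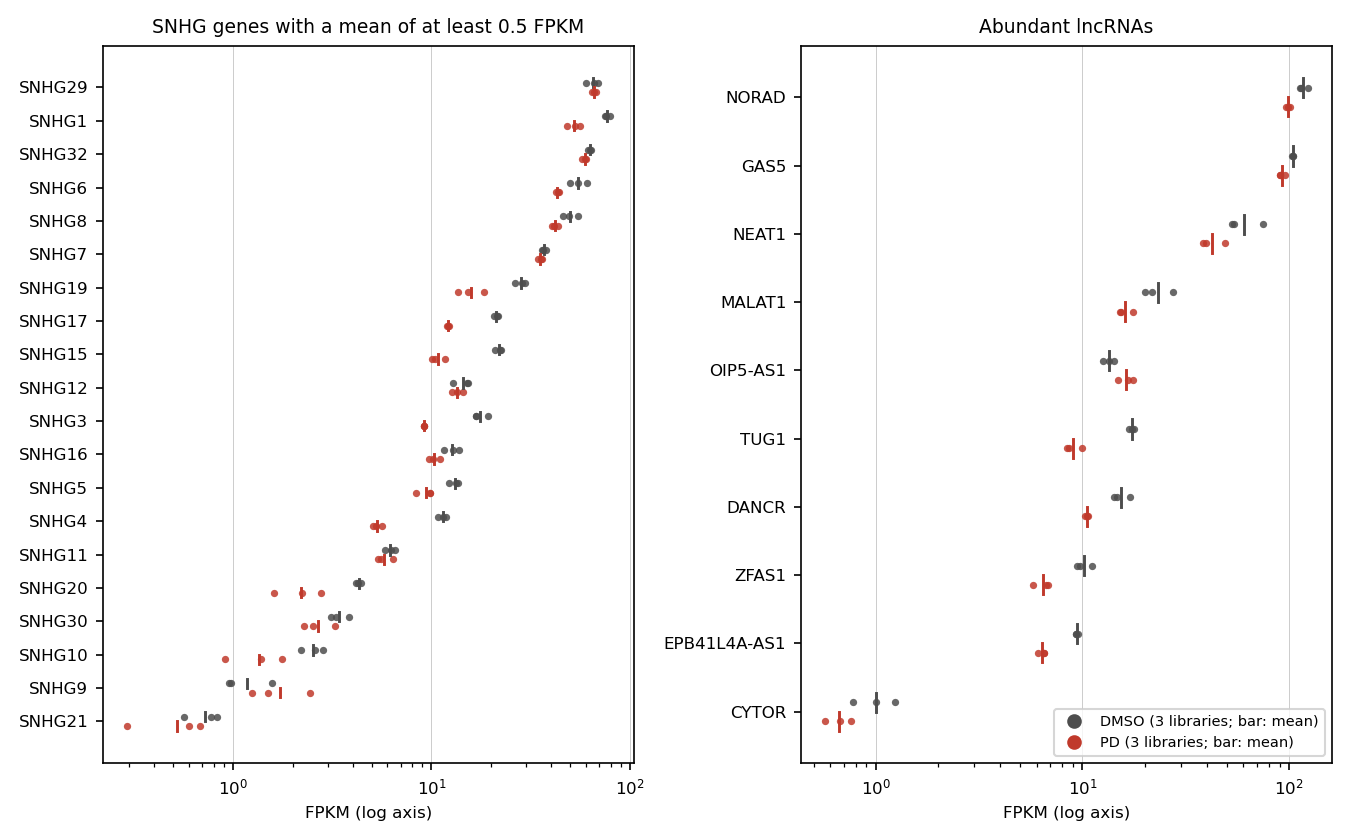
FPKM on a log axis in each of the 6 libraries (points) with the group mean (bar), for the 20 tested SNHG genes (left) and the 10 abundant lncRNAs (right), ordered by the mean over all libraries. The PD points (red) lie left of the DMSO points (grey) without overlap in 14 SNHG genes and 9 lncRNAs, and right of them in OIP5-AS1.

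The highest level over the 6 libraries was that of SNHG29 (ENSG00000175061, chromosome 17 from 16438767 to 16480249), which hosts SNORD49A, SNORD49B and SNORD65. It had 69.0, 59.8 and 66.1 FPKM in DMSO replicates 1, 2 and 3 and 67.7, 64.5 and 66.2 FPKM in PD. The groups overlapped, and the difference of 0.03 on the log2 scale had a 95% interval of -0.10 to 0.15 (adjusted p = 0.69, limma). SNHG1 (ENSG00000255717, chromosome 11 from 62851978 to 62855953), host of a cluster of box C/D snoRNAs that includes SNORD22 and SNORD25, was next. It had 75.2, 76.3 and 79.2 FPKM in DMSO and 48.3, 56.3 and 53.1 FPKM in PD, so that every PD library was below every DMSO library. The log2 fold change of SNHG1 was -0.54 with a standard error (SE) of 0.06 and an adjusted p of 0.00015 (limma). SNHG1 stood above SNHG29 in each DMSO library and below it in each PD library, on the lengths that the authors used.

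SNHG32, host of SNORD48 and SNORD52, had 63.1, 63.6 and 61.5 FPKM in DMSO and 57.7, 59.5 and 60.4 FPKM in PD. Its groups did not overlap, but the difference of -0.08 (95% interval -0.16 to -0.01) was not called, at an adjusted p of 0.053. SNHG6, host of SNORD87, had 60.6, 49.7 and 54.8 FPKM in DMSO and 43.3, 42.4 and 43.8 FPKM in PD. This was a fall of 0.34 on the log2 scale (SE 0.07, adjusted p = 0.0036, limma), and the lowest DMSO library lay above the highest PD library. SNHG8, host of SNORA24, had 49.1, 46.1 and 54.7 FPKM in DMSO and 41.7, 43.6 and 40.3 FPKM in PD, and was lower by a smaller margin (log2 fold change -0.25, SE 0.06, adjusted p = 0.012). SNHG7, host of SNORA17A and SNORA17B, had 36.1, 36.3 and 38.0 FPKM in DMSO and 35.9, 34.5 and 35.7 FPKM in PD. Here the groups were separate by a narrow gap and the difference of -0.05 (95% interval -0.14 to 0.03) was not called.

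Of the next 4 genes by level, 3 fell and SNHG12 was not called. SNHG19, host of SNORD60 on chromosome 16 from 2154792 to 2155405, had 28.8, 29.7 and 26.5 FPKM in DMSO and 13.6, 15.3 and 18.5 FPKM in PD, which came from 84 to 170 fragments per library. SNHG17, host of the SNORA71 family, had 21.6, 20.6 and 21.3 FPKM in DMSO and 12.2, 12.1 and 12.0 FPKM in PD. The spread within each group of SNHG17 was small (SD 0.519 and 0.102 FPKM, n = 3), and its log2 fold change of -0.76 (SE 0.04) had the lowest adjusted p of the SNHG genes, 6.1e-06 (limma). SNHG15, host of SNORA9 on chromosome 7 from 44983019 to 44986961, had 22.4, 22.2 and 21.0 FPKM in DMSO and 10.4, 11.7 and 10.1 FPKM in PD. Its mean in PD was 0.491 of that in DMSO, and the log2 fold change on the FPKM + 1 scale was -0.96 (SE 0.06, adjusted p = 1.5e-05), just short of 2-fold on that scale. SNHG12, host of SNORD99 and SNORA44, had 15.1, 15.4 and 12.8 FPKM in DMSO and 12.7, 14.4 and 13.4 FPKM in PD, with overlapping groups and a difference of -0.08 (95% interval -0.26 to 0.09). SNHG12 lies near SNHG3 on chromosome 1, on the opposite strand, and of the pair SNHG3 alone was called.

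SNHG3 (ENSG00000242125, chromosome 1 from 28505980 to 28510892), host of SNORA73A and SNORA73B, had 19.3, 16.8 and 16.8 FPKM in DMSO and 9.14, 9.21 and 9.13 FPKM in PD. Its log2 fold change was -0.87 (SE 0.06, adjusted p = 2.2e-05, limma), and part of an SNHG3 exon overlaps an exon of RCC1 on the same strand. SNHG4 (ENSG00000281398, chromosome 5 from 139274102 to 139284899) had 11.4, 10.8 and 11.9 FPKM in DMSO and 5.66, 5.07 and 5.25 FPKM in PD. With a mean in PD of 0.468 of that in DMSO and a log2 fold change of -0.97 (SE 0.06, adjusted p = 1.2e-05), this was the largest fall of the SNHG genes in this fit. SNHG4 shares exon sequence with MATR3 on the same strand and with SIL1 on the other, so that the fragments of these genes could be divided in more than 1 way. The 5 largest falls among the called SNHG genes on the FPKM + 1 scale were thus those of SNHG4, SNHG15, SNHG3, SNHG19 and SNHG17. By the ratio of the group means the order differed, with 0.468 in SNHG4, 0.491 in SNHG15, 0.513 in SNHG20, 0.520 in SNHG3, 0.533 in SNHG10, 0.558 in SNHG19 and 0.571 in SNHG17.

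The other called SNHG genes were SNHG20 (-0.74), SNHG10 (-0.60), SNHG5 (-0.45) and SNHG16 (-0.28). In SNHG20 the mean fell from 4.29 ± 0.128 to 2.20 ± 0.579 FPKM (SD, n = 3), and in SNHG10 from 2.53 ± 0.313 to 1.35 ± 0.428 FPKM. Both hold a small Cajal body RNA, SCARNA16 in SNHG20 and SCARNA13 in SNHG10, in place of a snoRNA of the nucleolus. SNHG5, host of SNORD50B, fell from 13.1 ± 0.703 to 9.36 ± 0.848 FPKM, and SNHG16, host of SNORD1A and SNORD1C, from 12.7 ± 1.07 to 10.3 ± 0.660 FPKM. SNHG11, SNHG21, SNHG30 and SNHG9 were not called, with differences of -0.09, -0.18, -0.27 and 0.32 on the log2 scale. The 9 to 22 fragments of SNHG9 per library left a 95% interval of -0.11 to 0.75. The 6 SNHG genes under the minimum (SNHG14, SNHG22, SNHG25, SNHG26, SNHG28 and SNHG31) had means of at most 0.438 FPKM. Of the 13 SNHG genes with a mean over 10 FPKM, 9 were lower, but the share over all genes of that level was not taken. Of all 20, 8 were lower by at least 0.5 on the log2 scale, against 9.05% of all tested genes.

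**Figure D2:**
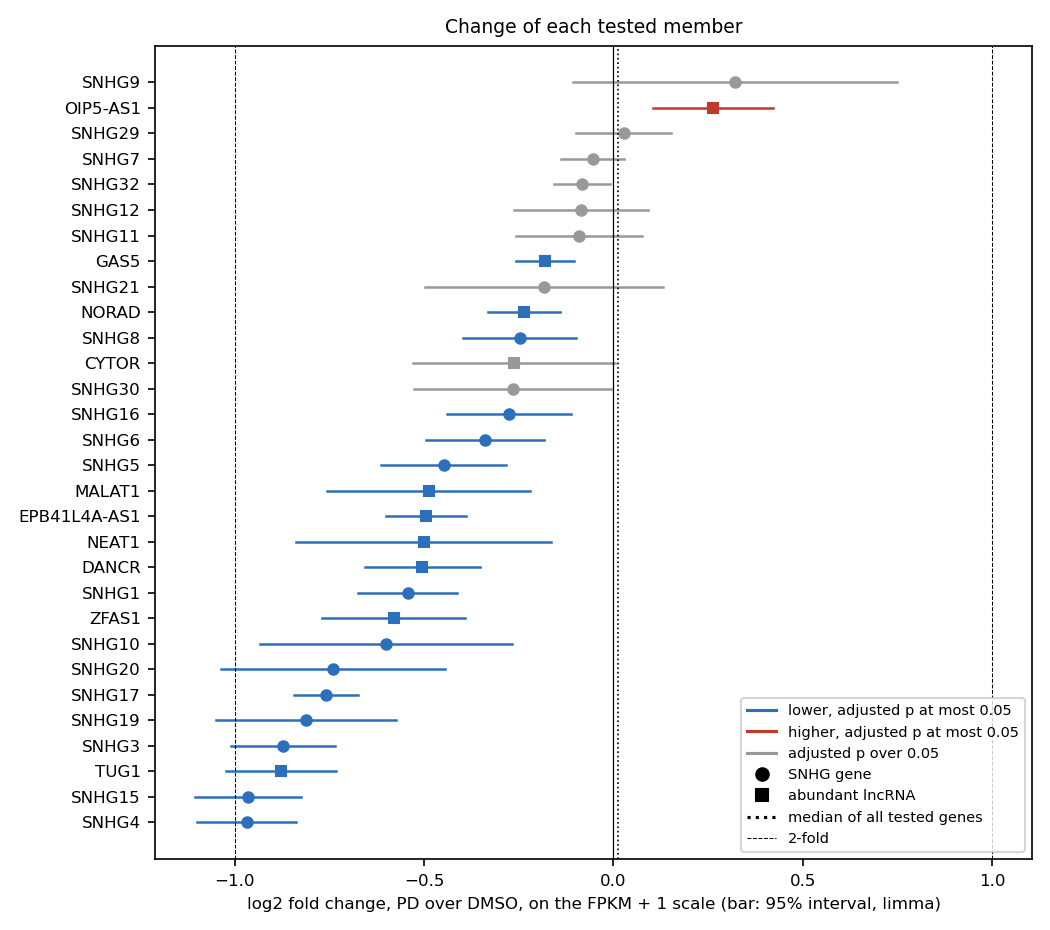
Log2 fold change of the 30 tested genes on the FPKM + 1 scale with its 95% interval (limma), ordered by size, with SNHG genes as circles and abundant lncRNAs as squares. Blue marks a lower and red a higher level in PD where the adjusted p did not exceed 0.05. The values run from -0.97 in SNHG4 to 0.32 in SNHG9.

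The abundant lncRNAs moved mostly in the same direction. Of 10 tested, 8 were lower at the adjusted p (80%, against 26.2% of all tested genes). Another 1 was higher (10%, against 31.9%) and 1 was not called. Their median log2 fold change was -0.49. The 3 PD libraries lay below the DMSO libraries in 9 of the lncRNAs (90%, against 29.9% of all tested genes). None of them reached a 2-fold change on the FPKM + 1 scale, so 0 were DEGs in this fit at any p, and 0 were by voom. With the SNHG genes, 20 of 30 members (66.7%) were lower and 1 was higher.

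The lncRNAs that are themselves host genes all fell. GAS5 (ENSG00000234741, chromosome 1 from 173858559 to 173868882) had 105, 104 and 105 FPKM in DMSO and 90.3, 96.0 and 90.2 FPKM in PD. The fall of 0.18 on the log2 scale (SE 0.03, adjusted p = 0.0025, limma) was small, and the DMSO libraries lay within an SD of 0.728 FPKM. DANCR, host of SNORA26, had 14.3, 14.7 and 17.0 FPKM in DMSO and 10.3, 10.5 and 10.6 FPKM in PD (log2 fold change -0.51, SE 0.06, adjusted p = 0.00044). ZFAS1 (ENSG00000177410, chromosome 20 from 49278178 to 49299600), host of SNORD12 and SNORD12B, had 11.2, 9.44 and 9.75 FPKM in DMSO and 5.77, 6.84 and 6.70 FPKM in PD. Its log2 fold change of -0.58 (SE 0.08, adjusted p = 0.00066) was the largest of these host genes. EPB41L4A-AS1, host of SNORA13, had 9.35, 9.26 and 9.56 FPKM in DMSO and 6.54, 6.48 and 6.11 FPKM in PD, a fall of 0.49 (SE 0.04, adjusted p = 8.0e-05). In DANCR, ZFAS1 and EPB41L4A-AS1 every PD library was below every DMSO library.

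NEAT1 and MALAT1 fell with a wider spread. RNA was selected by its poly(A) tail, so any form of these RNAs without such a tail was not measured reliably. NEAT1 (ENSG00000245532, chromosome 11 from 65422774 to 65445540), the scaffold of paraspeckles, had 74.4, 52.8 and 54.3 FPKM in DMSO and 39.7, 48.7 and 38.2 FPKM in PD. The log2 fold change was -0.50 (SE 0.14, adjusted p = 0.019, limma), and DMSO replicate 1 stood above the other libraries. The call was lost without PD replicate 1 (adjusted p = 0.061), without PD replicate 3 (0.066) and with no filter on low values (0.065), while voom called it at 3.0e-05. MALAT1, which lies on the same chromosome from 65497640 to 65508073, had 27.5, 21.7 and 20.03 FPKM in DMSO and 15.2, 17.6 and 15.4 FPKM in PD. Its fall of 0.49 (SE 0.11, adjusted p = 0.0082) had the same library at the top, and the antisense transcript TALAM1 covers most of the gene, so that the fragments of MALAT1 and TALAM1 could not be told apart. TUG1, a mainly nuclear transcript that GENCODE release 44 classes as protein coding, had 17.3, 17.8 and 16.8 FPKM in DMSO and 9.90, 8.63 and 8.41 FPKM in PD. This was the largest fall of the lncRNAs, at -0.88 (SE 0.06, adjusted p = 2.7e-05), with a tight spread in both groups.

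NORAD (ENSG00000260032, chromosome 20 from 36045618 to 36051018) was the most abundant member, with 123, 114 and 112 FPKM in DMSO and 101, 99.1 and 96.7 FPKM in PD. It was lower by 0.24 on the log2 scale (SE 0.04, adjusted p = 0.0019, limma), and its exons overlap no other gene. OIP5-AS1, an RNA known to bind the stability factor HuR, was the member that rose. It had 14.2, 13.5 and 12.6 FPKM in DMSO and 16.5, 17.5 and 14.9 FPKM in PD, a log2 fold change of 0.26 (SE 0.07, adjusted p = 0.012). The groups of OIP5-AS1 were separate, although its exons overlap those of OIP5 on the opposite strand, and OIP5 itself was higher by 0.14 (adjusted p = 0.011). CYTOR, at 1.00, 0.777 and 1.23 FPKM in DMSO and 0.672, 0.759 and 0.568 FPKM in PD, was not called (-0.26, adjusted p = 0.083), but voom called it (adjusted p = 0.031).

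Summed over the 20 tested SNHG genes, the level was 518, 490 and 508 FPKM in DMSO and 391, 403 and 402 FPKM in PD. The mean of the sum went from 505 ± 14.3 to 399 ± 6.40 FPKM (SD, n = 3), a difference of -21.1%, and the groups did not overlap. The same genes took between 0.135% and 0.142% of the fragments of a DMSO library and between 0.108% and 0.111% of those of a PD library. For the 10 lncRNAs the sum went from 371 ± 22.7 to 299 ± 12.4 FPKM, or -19.6%. The order of levels rests on gene length. The length that the authors divided by differed from the exon length in GENCODE release 44 in 26 of the 30 genes, and SNHG8, at 45.9 FPKM on their 923 bases, would have 6.41 FPKM on the 6614 bases of that release. The fold changes do not depend on this length, apart from the share of the pseudocount. Exons of 29 of the 30 overlapped some other gene, and in 18 that gene was on the opposite strand, which a library without strand cannot separate.

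**Figure D3:**
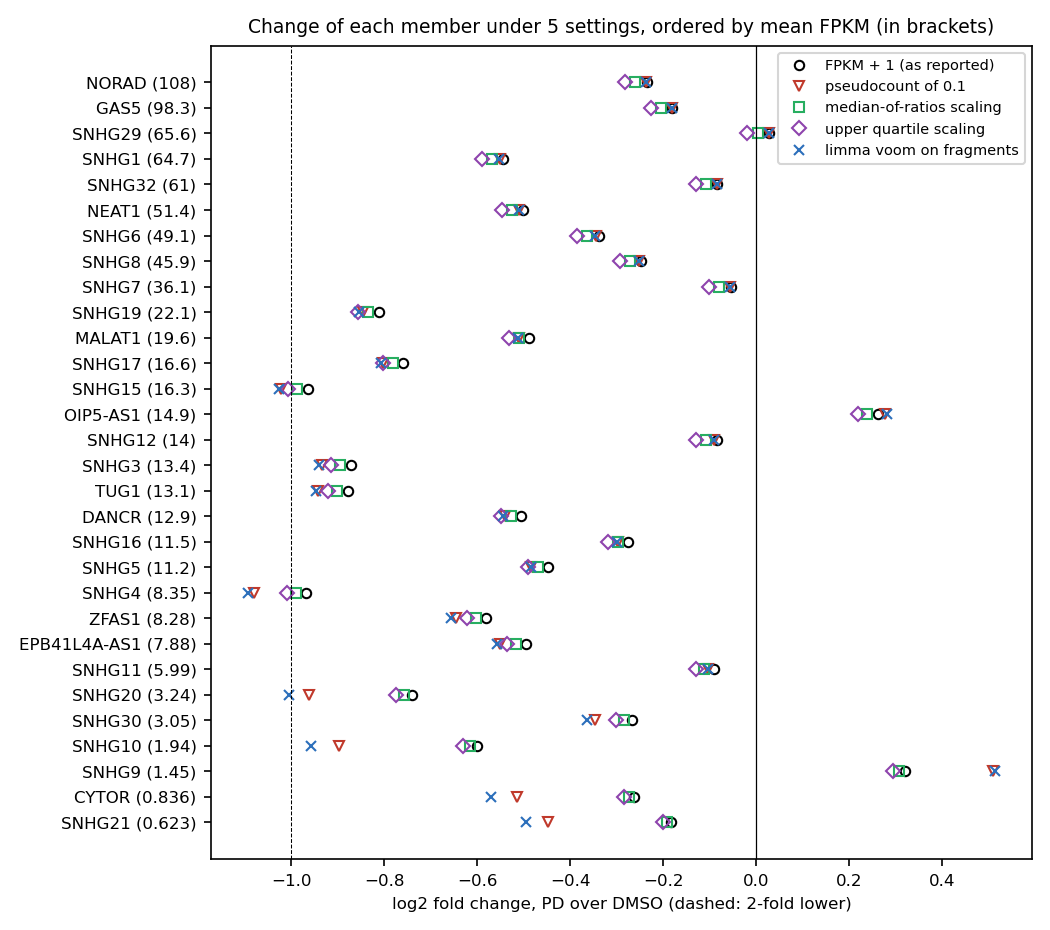
Log2 fold change, PD over DMSO, of the 30 tested genes under 5 settings, ordered by mean FPKM (in brackets). The settings nearly coincide above about 10 FPKM and part below it, where voom and a pseudocount of 0.1 give larger changes, as in SNHG10 (-0.60 as reported and -0.96 by voom), and the dashed line marks 2-fold lower.

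The call and direction were the same in all 12 alternatives for 24 of the 30 genes. The 2-fold line was close for several of them. SNHG4 was at -0.97 as reported, at -1.08 with a pseudocount of 0.1 and at -1.09 by voom, and SNHG15 was at -0.96, -1.02 and -1.03. SNHG20 was at -0.74, -0.96 and -1.01. The plot of the 5 settings shows that the genes of low FPKM moved most between scales.

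Among the genes with a 5′TOP-like start, SNHG4 (-0.97) and SNHG19 (-0.81) were near the largest falls, SNHG5 was at -0.45, and SNHG12 (-0.08) and SNHG32 (-0.08) were not called. The median log2 fold change was -0.45 in the 5 SNHG genes with such a start and -0.27 in the 12 without, and 3 of 5 and 7 of 12 were lower. Over all tested genes with a RefSeq promoter, the medians were 0.04 with and 0.05 without such a start, and 27.3% and 26.3% were lower. Among the 12 SNHG genes without such a start, SNHG1, SNHG3 and SNHG17, with runs of 3 bases or none, fell by 0.54, 0.87 and 0.76. SNHG29 (0.03), SNHG7 (-0.05), SNHG11 (-0.09), SNHG21 (-0.18) and SNHG30 (-0.27), also among the 12, were not called. The class of a gene rests on the first RefSeq start listed for it, and another start could place it in the other class. In SNHG1 the start used was 62855885, while the GENCODE gene on the minus strand begins at 62855953. The part of the start sequence in these changes was not tested. Of 18 tested 5′TOP regulators and translation factors with known 5′TOP mRNAs, 8 were lower (44.4%, against 26.2% of all tested genes) and 5 higher (27.8%, against 31.9%), with a median of -0.07. HNRNPA1, a splicing factor, went from 237 ± 5.18 to 143 ± 5.74 FPKM (log2 fold change -0.73, SD, n = 3), EEF1D, a subunit of the elongation factor that reloads eEF1A, was at -0.54, and EIF4B, a helper of the initiation helicase, at -0.52. LARP1, the protein that binds the 5′TOP tract, was lower by 0.36, and the elongation factor EEF1A1 was not called (-0.02, adjusted p = 0.58).

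The proteins that package snoRNAs were also lower as a rule. Of 18 tested genes of the snoRNA-protein particles and their assembly, 12 were lower (66.7%, against 26.2% of all tested genes), 3 were higher and 3 were not called, and the median log2 fold change was -0.23. The 15 calls went to between 10 and 15 when each library was left out, with 10 without DMSO replicate 1 or PD replicate 1. NOLC1, a chaperone of these particles in the nucleolus and Cajal body, went from 149 ± 2.11 to 83.6 ± 1.30 FPKM (log2 fold change -0.82, adjusted p = 2.6e-06, limma). NOP58, a core protein of box C/D particles, was at -0.67, and GAR1, a core protein of box H/ACA particles, at -0.63. DKC1, the pseudouridine synthase of the H/ACA particle, was lower by 0.61. The methyltransferase of box C/D particles, FBL, went from 73.0 ± 0.808 to 67.6 ± 2.15 FPKM (-0.11, adjusted p = 0.021), and the assembly factor SHQ1 was higher by 0.43.

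Protein-coding genes that hold a snoRNA were divided, with more of them lower than higher. Of 205 tested, 87 were lower (42.4%, against 26.2% of all tested genes) and 59 higher (28.8%, against 31.9%). Their median log2 fold change was -0.08. Without ribosomal protein genes 79 of 177 were lower (44.6%) and 54 higher (30.5%), with a median of -0.10. WDR43, a factor of the small ribosomal subunit's assembly, had the largest change of this list (33.9 ± 1.55 FPKM in DMSO and 13.5 ± 0.532 FPKM in PD, log2 fold change -1.26). POR, the reductase that supplies cytochrome P450 enzymes, was at 1.18, and ATP2B4, a calcium pump of the plasma membrane, at 1.09. The share of lower genes was 60% in the SNHG genes and 44.6% in these coding hosts without ribosomal proteins, and the difference between the lists was not tested.

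Of 15 tested NMD factors, 6 were lower (40%, against 26.2% of all tested genes), 1 was higher (6.67%, against 31.9%) and 8 were not called. Their median log2 fold change was -0.08. UPF2, which bridges the NMD complex, went from 8.35 ± 0.486 to 5.53 ± 0.516 FPKM (-0.52, adjusted p = 0.0006, limma), the exon junction subunit MAGOH was at -0.35 and SMG9, a partner of the SMG1 kinase, at -0.30. The central helicase UPF1 had 28.2 ± 1.70 FPKM in DMSO and 28.7 ± 0.109 FPKM in PD and was not called (0.03, adjusted p = 0.65).

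Partners of the nuclear lncRNAs fell in nearly every case. Of 11 tested paraspeckle proteins, 10 were lower (90.9%, against 26.2% of all tested genes) and 0 higher (against 31.9%). Their median log2 fold change was -0.37, beside NEAT1 at -0.50. SFPQ, which is needed for paraspeckles to form, went from 81.3 ± 2.68 to 49.8 ± 2.31 FPKM (-0.69, adjusted p = 1.6e-05, limma). HNRNPH3 was at -0.58 and CPSF6, a subunit of the cleavage factor that sets NEAT1's poly(A) site, at -0.57. The remaining gene, PSPC1, was not called (0.06, adjusted p = 0.55). Of 8 tested genes of nuclear speckles and MALAT1 processing, 6 were lower (75%, against 26.2%) and 0 higher, with a median of -0.30. The splicing factor SRSF1 went from 80.5 ± 0.915 to 49.3 ± 1.67 FPKM (-0.70), and the speckle scaffolds SON and SRRM2 were at -0.55 and -0.45. Of 7 known partners or neighbours of NORAD and OIP5-AS1, 4 were lower (57.1%, against 26.2%) and 3 higher (42.9%, against 31.9%). The median was -0.26. RBMX, an RNA-binding protein that associates with NORAD, was at -0.87, the Pumilio protein PUM2 was at -0.52, and cyclin G1 (CCNG1) was higher by 0.50.

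**Figure D4:**
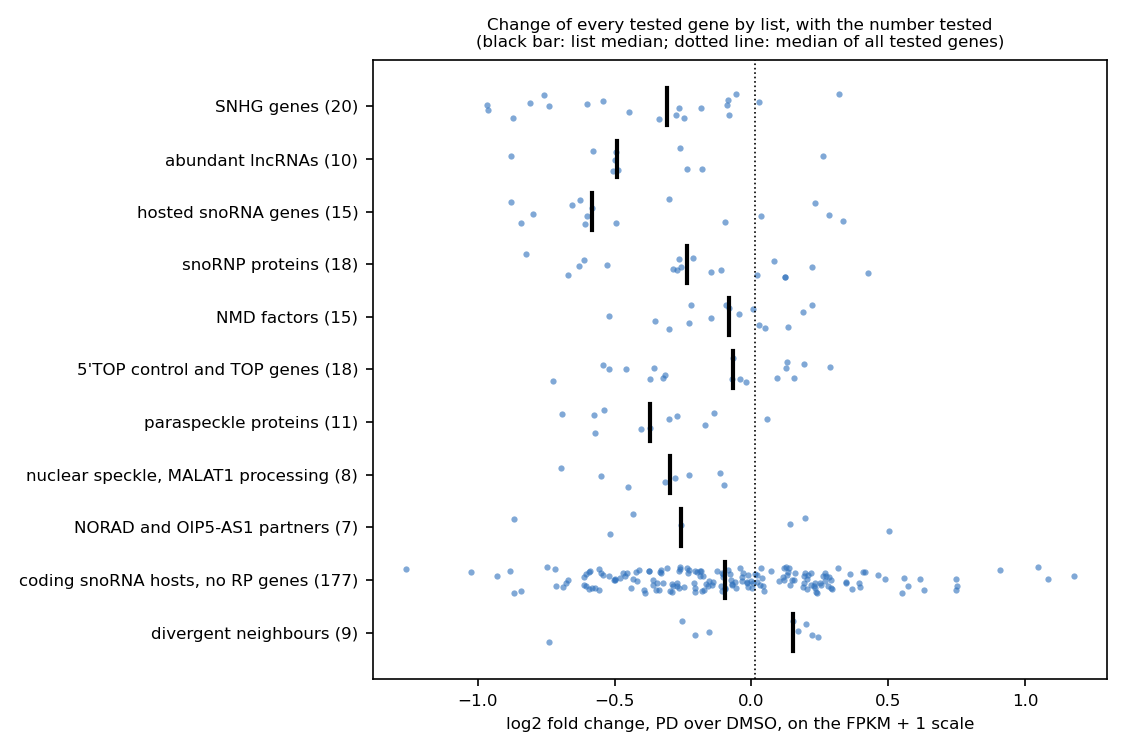
Log2 fold change of every tested gene (points) by list on the FPKM + 1 scale, with the number tested in brackets, the list median as a black bar and the median of all tested genes as a dotted line. The list medians are -0.31 for SNHG genes, -0.49 for the abundant lncRNAs, -0.37 for paraspeckle proteins and -0.10 for coding snoRNA hosts without ribosomal proteins (RP genes), beside 0.01 for all tested genes.

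The snoRNAs themselves were hardly measured, since they carry no poly(A) tail. GENCODE release 44 places 145 snoRNA or scaRNA genes wholly inside a member on its strand, 84 of them in SNHG14. None of the 145 was placed in GAS5, so any snoRNAs of that host are left out here. Of the 145, 30 were in the table, 15 with a mean of at least 0.5 FPKM. None had more than 38 fragments in a library, and fragments on a snoRNA interval could not be told apart from those of the host's unspliced RNA or, where the interval lies in an exon of the host, of its spliced RNA. Of the 15, 5 were called lower (33.3%, against 26.2% of all tested genes) and 0 higher. The intervals shown are those called, apart from SNORA71D with its few fragments, and SNORD12B as an example of the box C/D class. They are read from hg38, 5′ to 3′ on the gene's strand, and capitals mark the ACA box of the H/ACA snoRNAs and the C and D boxes of SNORD12B.
SNORA73B, chr1:28508559-28508762, plus strand: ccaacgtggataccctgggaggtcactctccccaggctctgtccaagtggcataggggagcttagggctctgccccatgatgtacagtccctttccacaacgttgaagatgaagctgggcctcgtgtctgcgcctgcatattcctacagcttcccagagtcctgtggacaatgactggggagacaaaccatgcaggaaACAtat
SNORA71C, chr20:38429670-38429803, minus strand: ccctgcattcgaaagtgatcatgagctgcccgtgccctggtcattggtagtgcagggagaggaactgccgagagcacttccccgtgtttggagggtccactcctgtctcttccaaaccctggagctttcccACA
SNORA71A, chr20:38427309-38427442, minus strand: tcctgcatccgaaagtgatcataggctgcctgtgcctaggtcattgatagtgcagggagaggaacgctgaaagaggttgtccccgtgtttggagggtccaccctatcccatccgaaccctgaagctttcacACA
SNORA60, chr20:38449370-38449503, plus strand: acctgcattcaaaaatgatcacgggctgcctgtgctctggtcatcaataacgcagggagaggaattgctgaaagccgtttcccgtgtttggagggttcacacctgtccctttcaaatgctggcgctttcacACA
SNORD12B, chr20:49280319-49280409, plus strand: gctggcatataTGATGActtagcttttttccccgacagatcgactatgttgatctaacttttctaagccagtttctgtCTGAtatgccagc

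SNORA73B, inside SNHG3, had 38, 30 and 24 fragments in DMSO and 26, 17 and 15 in PD. The groups overlapped, and its log2 fold change of -0.61 (SE 0.18, adjusted p = 0.024, limma) lost the call in 5 of the 12 alternatives. In SNHG17, SNORA71C had 19, 31 and 13 fragments in DMSO and 9, 10 and 13 in PD, and SNORA71A had 9, 11 and 8 in DMSO and 9, 2 and 3 in PD. Both were called (-0.80 and -0.88), but SNORA71C lost the call in 6 of the 12 alternatives. SNORA71A lost it in 7 and had no value by voom, where it failed the filter. SNORA71D was called on 7 fragments in DMSO and 1 in PD in all, and kept the call in the 10 alternatives that gave it a value. SNORA60, inside SNHG11, had 15, 9 and 17 fragments in DMSO and 8, 6 and 10 in PD (-0.63, adjusted p = 0.045), while its host was at -0.09, and lost the call in 6 alternatives. SNORD12B, inside ZFAS1, had 15, 20 and 9 fragments in DMSO and 8, 10 and 9 in PD and was not called. SNORA71C and SNORA60 were identical at 80.6% of their 134 bases without gaps, and SNORA71A and SNORA71C at 70.9%.

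There were 9 tested coding genes that start within 1 kb of a member's start on the other strand. Of these, 5 were higher (55.6%, against 31.9% of all tested genes) and 3 were lower (33.3%, against 26.2%), and 1 was not called. Their median log2 fold change was 0.15. Of the 6 that lie beside a tested member, 4 had a difference of the same sign as the member and 2, TRAF7 and ZNFX1, of the opposite sign. SLC3A2, an amino acid transporter subunit whose start lies 51 bases from that of SNHG1, went from 284 ± 9.69 to 238 ± 7.74 FPKM (-0.26, adjusted p = 0.00074, limma), beside -0.54 in SNHG1. MORC2 was lower by 0.21 beside TUG1 at -0.88. TRAF7 was higher by 0.15 beside SNHG19 at -0.81, and ZNFX1 was higher by 0.17 beside ZFAS1 at -0.58. These differences were small, and TRAF7 lost its call in 4 of the 12 alternatives and ZNFX1 in 1. RPS2, a ribosomal protein gene, was higher by 0.20 beside SNHG9 at 0.32, which was not called, and the call of RPS2 was lost with no filter on low values (adjusted p = 0.072). ZBTB37, next to GAS5, was at -0.15 (adjusted p = 0.093). SEMA5A (-0.74), ACAA2 (0.24) and BARD1 (0.22) lie beside SNHG18, SNHG22 and SNHG31, which were not tested.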

How the data were processed

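The authors selected poly(A) RNA, prepared libraries with a kit that does not mark strand, aligned reads to hg38 with HISAT2 and counted genes with HTSeq 0.6.0 (tools per the submitters' processing notes), and deposited FPKM for 28563 genes in 6 libraries. The annotation release and strand setting are not given in the sources used here. All 6 value columns were matched to samples by name. Groups were taken from the labels.

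Symbols, coordinates and exon lengths came from GENCODE release 44 on hg38. FPKM were tested with limma 3.58.1 in R 4.3.3 on log2(FPKM + 1), with an intensity trend, a minimum mean of 0.5 FPKM and Benjamini-Hochberg adjustment over 14400 genes. Fold changes on this scale understate the change of low genes. Calls were made at an adjusted p up to 0.05, and DEGs also changed at least 2-fold. Whole fragments were worked back from FPKM for all 28563 genes (tolerance 0.001) and used for depth and for limma voom. The fits were tested on simulated data in which every changed gene changed by more than 2-fold and none was of low FPKM. Smaller changes, as in most members here, and genes of low FPKM were not covered by it.

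The members and gene lists were chosen with earlier results of these data known. Values are given per library for the 10 SNHG genes of highest level, the 5 largest falls and rises among called SNHG genes (none rose), and the 10 lncRNAs. From each other list the 3 largest called changes are named, with hosted snoRNAs and divergent neighbours. LARP1, EEF1A1, DKC1, FBL, SHQ1, UPF1, PSPC1, OIP5 and the keratins were named after their values were seen. The list of 5′TOP regulators and factors had 19 genes, and 18 were analysed.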

Additional observations from a re-analysis of the deposited data

How the results depend on the processing

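Over all tested genes, 8368 were called and 520 were DEGs, and a pseudocount of 0.1 gave 1248 DEGs and limma voom on fragments 1735. Leaving out each library in turn gave 511 to 561 DEGs. Among SNHG genes the count of DEGs went from 0 to 2 with a pseudocount of 0.1, to 2 with upper quartile scaling and to 3 with voom, and to between 0 and 1 when each library was left out, with 1 without PD replicate 1 or PD replicate 2. The count of lower SNHG genes was 12 to 13 in these leave-outs, 13 with voom or median-of-ratios scaling and 15 with upper quartile scaling. SNORA71D could not be fitted without DMSO replicate 2 or by voom, where it failed the filters, and SNORA71A could not be fitted by voom. Hosted snoRNA calls fell from 5 to 1 with no filter and to 2 with voom, and to between 1 and 5 when each library was left out (2 without DMSO replicate 1, 1 without DMSO replicate 2 or PD replicate 2, and 3 without PD replicate 1 or PD replicate 3). The SNHG29 log2 fold change turned to -0.030 without DMSO replicate 2 (range -0.030 to 0.071 over the libraries left out) and to -0.019 with upper quartile scaling, with no call in either. CYTOR was called without DMSO replicate 2 (adjusted p = 0.041), SNHG30 without PD replicate 3 (0.016) and SNHG32 without DMSO replicate 3 (0.047). Upper quartile scaling also called SNHG30, SNHG32 and SNHG7, and median-of-ratios scaling called SNHG32. Same-numbered libraries showed no strong shared deviation (correlations of -0.03, -0.005 and 0.09). This cannot exclude a pairing by number, and the main fit used none. With the replicate number as a block, 8032 genes were called with 518 DEGs, and the counts among SNHG genes were again 12 lower and 0 DEGs. The calls of SNORA71A and SNORA71C were lost with the block, but others were gained, and the count of hosted snoRNA calls stayed at 5. The causes were not tested.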
